A study of Trichoplusia ni and Spodoptera exigua with 20 samples.

Results

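The fat body response of the beet armyworm *S*. *exigua* to trichostatin A (TSA) was measured in 6 RNA-seq libraries, 3 from larvae consuming TSA and 3 from control larvae, out of 20 libraries in the series. All 6 came from wild-type larvae on an artificial diet with antibiotics, and each pooled the fat bodies of 3 to 5 larvae taken at about Day 10. TSA was given at 330 µM in ethanol spread over the diet, and control larvae received diet on which ethanol alone had been evaporated. The 3 *S*. *exigua* libraries from larvae consuming sulforaphane (SFN, 70 mM) were kept in the model because the study fitted all treatments of a species together. Genes were included where the mean CPM over the 6 libraries (reads of the gene scaled to a common library size) exceeded 10, which kept 5227 of the 18477 genes in the table, or of the 16290 with any count in these libraries.

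TSA is a hydroxamic acid that binds the zinc in the active site of histone deacetylases (HDACs), the enzymes that remove acetyl groups from histone tails. Acetylated histones are generally found at open, transcribed chromatin, and HDAC inhibitors are known to both raise and lower the transcription of large numbers of genes. The insect fat body combines roles that vertebrates divide between liver and adipose tissue. It stores lipid and glycogen, makes most proteins of the haemolymph, and in late larvae of moths it secretes large amounts of storage proteins that are later used in metamorphosis. The genes carry locus identifiers only, and 0 of them matched a name in the tables at hand, so neither HDAC genes, pathways nor fat body markers could be looked up and the tissue label was not checked against markers. No sequences of the genes were at hand.

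The counted reads came to 29910259 to 35157218 in a control library and to 25488363 to 28543809 in a TSA library, so that 10 CPM after scaling stood for 230.2 to 334.3 counts in the 6 libraries. SFN replicate 2 was the shallowest library in the model with 6352561, and 10 CPM stood for 73.55 counts there. Control replicate 1 stood apart from the other controls. Its median absolute difference in log2 CPM over the tested genes was 0.78 from control replicate 2 and 0.77 from control replicate 3, whereas controls 2 and 3 differed by 0.40 and pairs of TSA libraries by 0.34 to 0.44. On the first principal component of all 9 *S*. *exigua* libraries, which held 65.9% of the variance, controls 2 and 3 lay at -131.8 and -139.4, control 1 at -60.5 and the TSA libraries between 33.1 and 73.5. Nothing in the labels says whether the pools came from separate rearings, so the tests below measure the spread between these pools.

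Consumption of TSA changed the expression of 1081 of the 5227 genes, or 20.7%, at an adjusted p under 0.05 (quasi-likelihood test of edgeR). Expression fell in 741 genes (14.2%) and rose in 340 (6.5%). The falls were much deeper than the rises. Falls had a median of -3.73 on the log2 scale, and 354 genes fell by 4 log2 units or more. Rises had a median of 1.67, the largest was 4.51, and only 2 rose by 4 units or more. The share of falls among the calls was 68.5%, but with libraries scaled by their size only, which moved the median log2 fold change of all tested genes from -0.04 to 0.43, it was 46.7%, so that the more frequent direction turned.

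The number of calls depended on single libraries and on the model. Leaving out control 1, 2 or 3 gave 2216, 165 or 36 calls. Leaving out TSA replicate 1, 2 or 3 gave 396, 294 or 44, and without SFN replicate 1 there were 676. Of the 741 falls, 739 were also called without control 1 and 34 without control 3. With the replicate number as a block 279 genes were called, and with only the 6 libraries in the fit 303. With both restrictions edgeR called 0 genes, although 1520 had an unadjusted p under 0.05, while in the reported fit 2004 did.

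**Figure D1:**
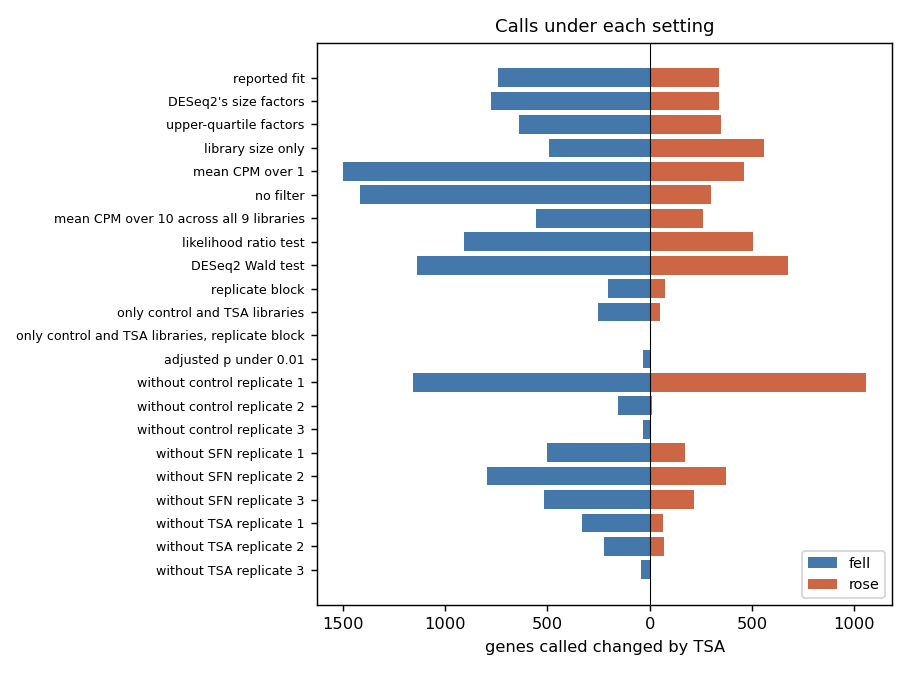
Number of genes called changed by TSA (x axis, falls to the left and rises to the right) in the reported fit and under each alternative setting (y axis). Calls ranged from 0 with only 6 libraries and a replicate block to 2216 without control replicate 1, and falls outnumbered rises in every setting that called genes except library size only, with 490 falls and 559 rises.

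The replicates of the groups separated in many more genes than were called. Every TSA library lay above every control library in 1102 genes (21.1%) and below every control library in 1223 (23.4%), together 44.5% of those tested. With libraries scaled by their size only, 1754 genes lay above and 723 below. For a single gene, a two-sided exact permutation test of 3 against 3 libraries gives at best p = 0.1. A gene without overlap is therefore not shown to differ by that alone. Of the called genes, 339 of the 340 that rose and 680 of the 741 that fell showed no overlap between groups.

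Falls were most frequent among genes of low abundance. In genes with a mean of 10 to 30 CPM, 425 of 2449 fell (17.4%), by a median log2 value of -5.52, and 136 rose (5.55%). The share that fell was 13.3% of 1600 genes between 30 and 100 CPM, 9.23% of 997 genes between 100 and 1000 CPM and 6.08% of 181 genes above 1000 CPM. A gene that is expressed in 1 group only passes the filter through that group, and the part of this in the shares was not tested. Of the tested genes, 615 exceeded 10 CPM in the controls only, and 444 of these fell, while 665 exceeded it under TSA only, and 129 of these rose. Among the 3947 genes over 10 CPM in both groups, 297 fell and 211 rose.

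The fold changes had a peak of their own far below the rest. Most tested genes lay between -2.5 and 2.5 log2 units, the number of genes declined to 9 in the interval from -5.5 to -5, and it rose again to 69 in each of the intervals from -8.5 to -8 and from -8 to -7.5. This lower peak is described here by the 280 genes between -10 and -6, limits that were set after the distribution was seen. Of these, 270 fell by edgeR's test. That number was 114 with the replicate block, 148 with only the 6 libraries in the fit and 0 with both. With the minimum applied over all 9 libraries, as the study's methods describe, it was 161, and genes under that minimum were not tested. Leaving out control 1, 2 or 3 gave 275, 101 or 18, and leaving out TSA replicate 1, 2 or 3 gave 246, 122 or 27.

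**Figure D2:**
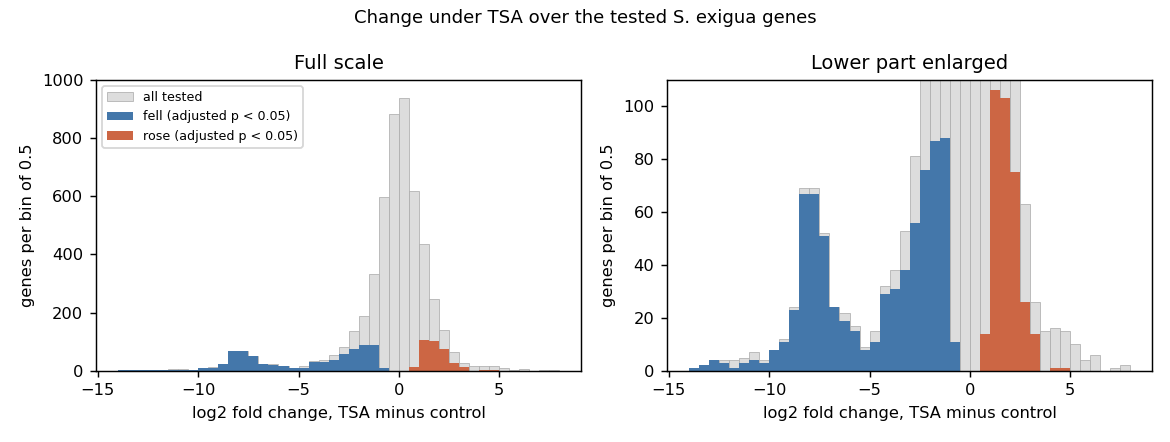
Number of *S*. *exigua* genes (y axis, bins of 0.5) by log2 fold change of TSA against control (x axis), on the full scale and with the lower part enlarged. Grey bars show all 5227 tested genes, blue bars the 741 that fell and orange bars the 340 that rose. A peak centred near -8 stands apart from the main distribution, and no such peak is seen among the rises.

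Most of the 280 genes were moderately expressed in every control and nearly silent under TSA, although 11, 3 and 3 were under 1 CPM in controls 1, 2 and 3. Their median expression was 25.6, 38.6 and 78.04 CPM in controls 1, 2 and 3, and 0.60, 0 and 0 CPM in TSA replicates 1, 2 and 3. In all, 173 of them had no count in TSA replicate 2, 152 none in TSA replicate 3 and only 4 none in TSA replicate 1. In 192 of them control 1 was within 2-fold of the mean of controls 2 and 3, and these 192 made up 0.786%, 0.753% and 1.82% of the counts in controls 1, 2 and 3, and at most 0.0203% under TSA. The values of the groups were apart in 261 of the 280, but the fold change itself chose these genes, so neither this count nor that of the falls is a test of them. Across the alternative settings other than leaving out TSA replicate 1, their median log2 fold change stayed between -8.68 and -7.29, and without TSA replicate 1 it was -11.07, as the remaining TSA libraries hold few counts of them.

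Most of these genes kept nearly the same proportions among the control libraries. Relative to each gene's own control mean, the level in control 1 had a median of 60.5% with quartiles of 55.8% and 64.1%. The level in control 2 was 80.5% (quartiles 74.9% and 87.6%), and that in control 3 was 159% (quartiles 152% and 164%). In TSA replicate 1 a level of 1.09% was left (quartiles 0.746% and 1.56%), and it was the highest of the 3 TSA libraries in 246 of the 280 genes. For comparison, the 829 genes with log2 fold changes between -4 and -1 had quartiles of 31.8% and 70.1% in control 1 and of 103% and 155% in control 2, so that their proportions among the controls were looser and had a different order. The deep group was lowest in control 1 and highest in control 3, whereas the moderately lowered genes were typically highest in control 2.

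**Figure D3:**
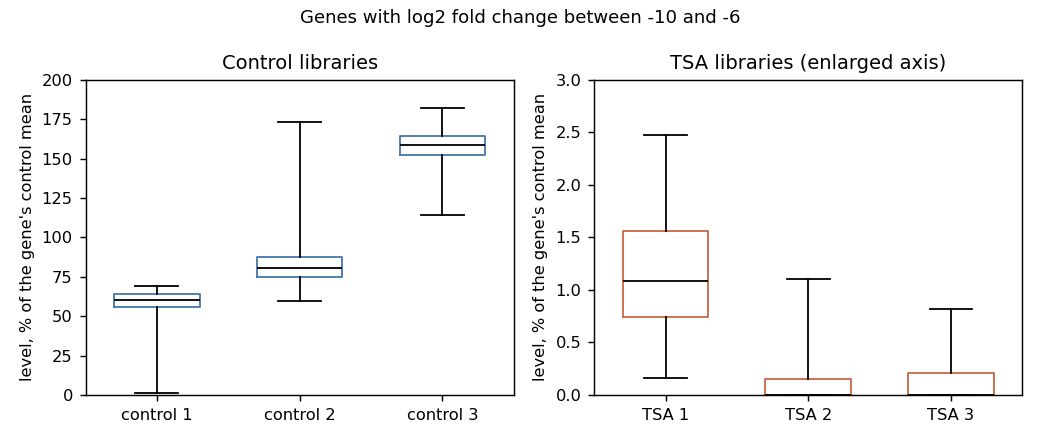
Level of each of the 280 genes with log2 fold changes between -10 and -6, as a percentage of that gene's mean over the 3 controls (y axis), by library (x axis), for control libraries on the left and TSA libraries on the right with an enlarged axis. Boxes span the quartiles with the median as a line, and whiskers reach the 5th and 95th percentiles. The control medians are 60.5%, 80.5% and 159%, and the TSA medians 1.09%, 0% and 0%.

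The fall of the genes of the lower peak was measured in dissected tissue. Fewer cells of a type and less RNA per cell cannot be told apart there. Without gene names no markers of another cell type could be examined in the libraries, and the part of the cell makeup in this result, including any other tissue carried over in the dissection, was not tested. Called genes often followed each other in the numbering of the locus identifiers. Of the 97 genes of the lower peak whose next number was also tested, the next gene belonged to the peak in 23, or 23.7%, while the peak held 5.36% of all tested genes. For all falls the figure was 82 of 292 (28.1%), against 11.1% after a gene that did not fall. For rises it was 16 of 135 (11.9%), against 6.18% after a gene that did not rise. Whether consecutive numbers are neighbours in the genome was not examined, and near-identical or overlapping genes could share reads.

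The deep falls also included genes that were already low in control replicate 1, some of them within the lower peak. Of the 354 genes that fell by 4 log2 units or more, 79 were at least 4-fold lower in control 1 than the mean of the other controls on the log2 CPM scale, while 208 were within 2-fold of it. The median expression of these 79 genes was 3.73, 258.3 and 219.5 CPM in controls 1, 2 and 3, and 1.46, 1.65 and 0.987 CPM in the TSA libraries. Control 1 lay near the TSA range, and the groups did not overlap in 50 of the 79, compared with 680 of the 741 falls and 23.4% of all genes tested. These genes held 15.3% and 12.1% of all counts in controls 2 and 3, but 0.152% in control 1 and at most 0.0801% under TSA.

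HF086_012964 lost the most expression of any gene that fell without overlap between groups. Its expression was 188.7, 69455 and 44243.8 CPM in controls 1, 2 and 3, and 24.1, 18.4 and 0.598 CPM in TSA replicates 1, 2 and 3. Controls 2 and 3 thus stood more than 2 orders of magnitude above control 1, and control 1 stood above each TSA library. The log2 fold change was -11.37 ± 2.43 (standard error), with an adjusted p of 0.0232 in edgeR, and with the replicate block the adjusted p was 0.0642. Under SFN the same gene measured 43.2, 119.1 and 96.1 CPM. Together with the 2 next largest losses, HF086_012964 accounted for 12.8% and 8.86% of the counts in controls 2 and 3, 0.0296% in control 1 and at most 0.0064% under TSA.

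HF086_002105 had the largest fall on the log2 scale. It had 8, 308 and 5080 counts in controls 1, 2 and 3, equal to 0.269, 13.4 and 219.5 CPM, and 0 counts in every TSA library. Control 3 was more than 10-fold above control 2, and control 1 was under 1 CPM. Against the upper limit of 3 counts over the TSA libraries together, which is 0.0352 CPM, the mean control expression of 77.7 ± 123 CPM (SD, n = 3) was at least 2206-fold higher. That bound rests on control 3, and the mean of controls 1 and 2, 6.83 CPM, was at least 194-fold higher than the limit. The adjusted p was 0.0377 in edgeR, 0.0905 with the replicate block and 0.16 without control 3. Each of the 4 genes named here kept its direction but lost its call when control 2, control 3 or any of the TSA libraries was left out.

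**Figure D4:**
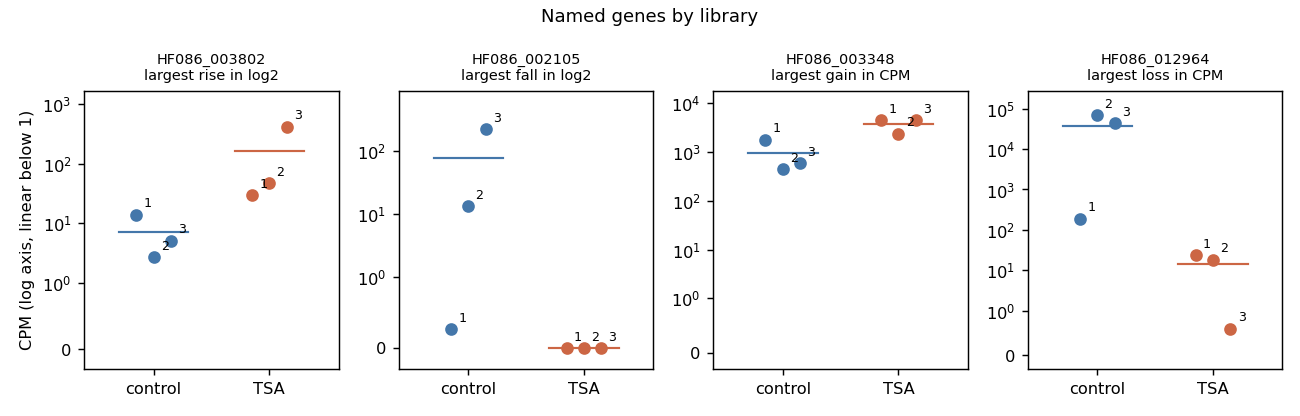
Expression in CPM after scaling (y axis, logarithmic and linear below 1) of the 4 named genes in each control library (blue) and each TSA library (orange). Points are numbered by replicate and lines mark the group means. In both genes that fell, control 1 lies nearest to the TSA libraries, at 188.7 CPM in HF086_012964 and 0.269 CPM in HF086_002105.

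The other falls were moderate and left most genes detectable. In the 387 genes that fell by less than 4 log2 units, the median log2 fold change was -2.05, and the median expression was 30.9, 77.6 and 68.5 CPM in the controls and 14.7, 16.4 and 15.0 CPM under TSA. The medians of the TSA libraries lay close to each other, while control 1 lay between TSA and the other controls. Over all 741 falls, control 1 was the lowest control in 696 genes, compared with 2174 of the 5227 genes tested. The falling genes together held 5.49%, 25.3% and 22.7% of the counts in controls 1, 2 and 3, and 1.67% to 2.24% under TSA. These shares describe genes chosen by the same comparison and are no further evidence of a fall.

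The 340 genes that rose did so from a low but measurable level. Their median expression was 23.2, 10.7 and 12.4 CPM in controls 1, 2 and 3, and 54.9, 46.1 and 57.9 CPM in the TSA libraries. None had a mean under 1 CPM in the controls, so the called rises were increases in genes already expressed there. Control 1 was again the control nearest to TSA, as it was the highest control in 311 of the 340, compared with 2330 of the 5227 genes tested. Together the rising genes held 0.929% to 2.30% of control counts and 4.71% to 7.74% of TSA counts. TSA replicate 3 was the highest TSA library in 204 of them and TSA replicate 2 in 34.

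HF086_003348 gained the most expression of any gene called as a rise without overlap between groups. It measured 1802.9, 451.8 and 594.4 CPM in controls 1, 2 and 3 and 4447.6, 2396.0 and 4516.5 CPM in TSA replicates 1, 2 and 3. Every TSA library was above every control, although control 1 came within 1.5-fold of TSA replicate 2. Its mean rose from 949.7 ± 742.3 CPM (SD, n = 3) to 3786.7 ± 1204.9 CPM (SD, n = 3), a log2 fold change of 2.00 (standard error 0.55, adjusted p = 0.0389 from edgeR). With the replicate block the adjusted p was 0.0551.

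HF086_003802 had the largest rise on the log2 scale among the called genes without overlap between groups. Its expression was 13.9, 2.69 and 5.10 CPM in the controls and 29.7, 46.9 and 418.2 CPM in TSA replicates 1, 2 and 3. TSA replicate 3 was far above the other TSA libraries, and the log2 fold change fell from 4.51 (standard error 1.32, adjusted p = 0.0459 from edgeR) to 2.40 without it, with an adjusted p of 0.149. With the replicate block the adjusted p was 0.0665.

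The highest fitted increases came mostly from TSA replicate 1 and were rarely called. Of the 54 genes with a log2 fold change above 4, only 2 passed the test. Their median expression was 1.24, 1.28 and 0.778 CPM in the controls, 118.5 CPM in TSA replicate 1 and 0.535 and 0.553 CPM in TSA replicates 2 and 3. TSA replicate 1 was at least 4-fold above both other TSA libraries in 43 of the 54. Under SFN the medians were 58.3, 2.86 and 17.8 CPM in replicates 1, 2 and 3, so an elevated level in some pools only was also seen there.

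TSA libraries, like the SFN libraries, were less dominated by a few abundant transcripts than the controls were. The 100 most abundant genes of each library held 51.5%, 59.6% and 53.7% of the counts in the controls and 42.4%, 46.9% and 40.4% under TSA. Every TSA library lay below every control, with means of 55.0% ± 4.2 (SD, n = 3) and 43.2% ± 3.3 (SD, n = 3). A two-sided exact permutation test gave p = 0.1, the smallest value that 3 against 3 libraries allow. For the 10 most abundant genes the shares were 26.0%, 38.6% and 31.3% in the controls and 16.3%, 20.7% and 12.7% under TSA (exact permutation test, p = 0.1). The lower shares were not particular to TSA. In SFN replicates 1, 2 and 3 the 100 most abundant genes held 37.6%, 41.7% and 44.4%, and the 10 most abundant 13.4%, 12.2% and 19.9%. Among the 10 genes with the highest mean abundance over the 6 libraries, 3 fell and none rose. Among the highest 100, 8 fell and 3 rose, which is below the shares over all tested genes of 14.2% and 6.5%. The most abundant gene of all was not called. It held 10.2%, 9.35% and 7.55% of the counts in the controls and 5.76%, 7.84% and 1.96% under TSA (adjusted p = 0.46 from edgeR).

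**Figure D5:**
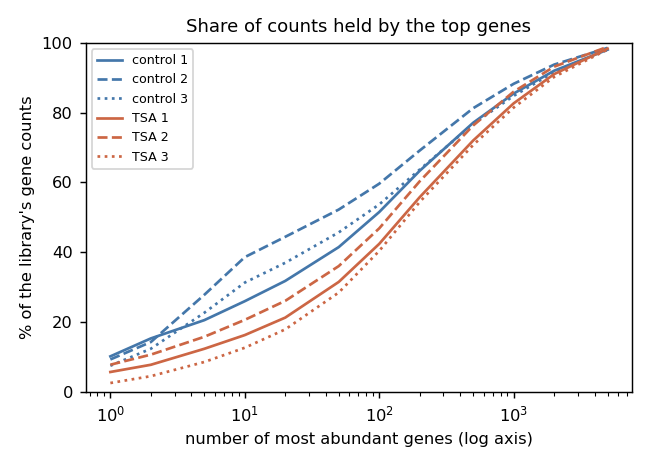
Percentage of each library's gene counts (y axis) held by its most abundant genes, by the number of genes taken (x axis, logarithmic). Blue lines are the 3 controls and orange lines the 3 TSA libraries. At 100 genes the controls lie at 51.5% to 59.6% and the TSA libraries at 40.4% to 46.9%.

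The response to TSA was set beside that to SFN, which was measured against the same 3 controls. SFN changed 1106 of the same 5227 genes (21.2%), with 691 falls and 415 rises. The 741 genes that fell under TSA had a median log2 fold change of -3.73 under TSA and -3.52 under SFN, and the 340 that rose had 1.67 and 1.604. For the 280 genes of the lower peak the medians were -7.81 under TSA and -8.62 under SFN. Because the controls are shared, the likeness of these values is no separate evidence. Compared directly, TSA and SFN libraries differed in 0 genes by edgeR's quasi-likelihood test, with 139 genes at an unadjusted p under 0.05. That is fewer genes than pass this threshold on average where none differs. By contrast, 3 genes passed the likelihood ratio test and 6 the Wald test of DESeq2. The central 90% of log2 fold changes between TSA and SFN lay between -1.03 and 1.07. The absence of calls does not show that the inhibitors acted alike.

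In the cabbage looper *T*. *ni*, the same test called 1664 of 5597 genes changed by TSA (29.7%), with 1393 falls and 271 rises and a median log2 fold change of -7.41 among the falls. The *T*. *ni* fit had 4 TSA libraries against 3 controls, whereas the *S*. *exigua* fit had 3 of each, so the counts are not a like comparison. The genes of the species were not matched to each other, and the difference between species was not tested.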

How the data were processed

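The authors trimmed the reads of poly(A)-selected libraries with Trimmomatic 0.39, aligned them with HISAT2 2.2.1 to the *S*. *exigua* genome, summed them by gene in featureCounts and deposited these raw counts, which are not normalized. Strand-specific counting is not stated. The tools and versions are given in the submitters' processing notes. Deposited normalized tables were not used here, and 0 columns of the count tables were left unassigned.

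Genes were kept where CPM, here relative to the library total, averaged over 10 in the 6 libraries, while printed gene levels are CPM after TMM scaling. Libraries were scaled by TMM and fitted in edgeR 4.0.16 (R 4.3.3) with treatment as the only term over all 9 *S*. *exigua* libraries. TSA was contrasted with control by the quasi-likelihood test, and p-values were adjusted by Benjamini-Hochberg with a threshold of 0.05. Standard errors were derived from the F statistic. The methods of the study mention pairing of triplicates without giving model terms, and the labels name no shared source behind a replicate number, so the replicate block was an alternative. Log2 CPM used a prior count of 2. The alternatives were DESeq2's size factors, upper-quartile factors or library size only, a lower, an absent or a 9-library CPM minimum, the likelihood ratio and DESeq2 1.42.0 Wald tests, the replicate block, a fit of only the control and TSA libraries, a stricter threshold and leaving out each library. The fit was also run on simulated data. These had the same spread between replicates for every gene and no deviating library, so the run is no check of the calls reported here. Figures were drawn with matplotlib 3.10.9.

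The named genes are, in each direction, the called gene without overlap between groups that had the largest log2 fold change and the one with the largest difference in mean CPM. The gene sets, lists and model were chosen with earlier results of these data known. The upper limit of 3 counts covers counting error only, whereas the SDs and standard errors include the spread between pools.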

Additional observations from a re-analysis of the deposited data

How the results depend on the processing

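The 1081 calls became 1956 with a mean CPM over 1, 1716 with no filter, 1814 by DESeq2's Wald test, 279 with the replicate block, 303 with only the control and TSA libraries, 0 with that and the replicate block, and 37 at an adjusted p under 0.01. The count stayed within 1.5-fold with DESeq2's size factors (1114), upper-quartile factors (989), library size only (1049), the likelihood ratio test (1414) and the filter over all 9 libraries that the study's methods describe (819). With 1 library left out they ranged from 36 to 2216. The 68.5% share of falls became 64.8% with upper-quartile factors, 46.7% with library size only, 76.5% with a mean CPM over 1, 82.5% with no filter, 64.1% by the likelihood ratio test, 62.8% by DESeq2's Wald test, 73.1% with the replicate block, 83.5% with only the control and TSA libraries and 94.6% at an adjusted p under 0.01. With 1 library left out it ranged from 52.2% to 95.5%. Fewer libraries in the fit leave fewer residual degrees of freedom, but calls rose to 2216 without control 1 and to 1169 without SFN replicate 2. The cause of the shifts was not tested. The 2325 genes without overlap between groups became 4216 with a mean CPM over 1, where 10009 genes were tested. The direct comparison of TSA with SFN gave 3 genes by the likelihood ratio test, 6 by DESeq2's Wald test and 0 with any 1 library left out. The count for *T*. *ni* stayed within 1.5-fold in all 14 alternatives run.

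Whether the replicate numbers pair the samples is not settled. The deviations of same-numbered control and TSA libraries from their group means had correlations of -0.119, 0.0369 and -0.212. No control library correlated best with the TSA library of its own number. Such values from groups of 3 libraries cannot decide whether the numbers pair the samples. Between SFN and TSA these correlations were 0.37, -0.0846 and -0.026. On the second principal component, with 9.12% of the variance, the control, SFN and TSA libraries lay at 47.3, 35.0 and 36.7 for replicate 1, at -24.6, -24.4 and -29.7 for replicate 2 and at -11.5, 6.24 and -34.9 for replicate 3, so that replicate 1 stood apart there. The 4 named genes kept their direction in all 21 alternatives run for each, and the adjusted p of each gene was over the threshold in 9 to 12 of them. The difference in the share of the 100 most abundant genes was -11.7 percentage points and ranged from -13.6 to -9.39 with 1 library left out. For a gene with 0 counts in every TSA library, the upper limit of its level in that group was 0.0352 CPM at this depth.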

Other observations

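Genes of lower abundance were also numerous among the deep falls. With the minimum lowered to a mean of 1 CPM, 4782 further genes were tested, of which edgeR called 842 as falls (17.6%) and 85 as rises (1.78%), with median log2 fold changes of -6.52 and 2.18. The log2 fold change lay between -10 and -6 in 457 of these genes, of which 447 fell, and in 734 genes over the whole table at that minimum. The fold change itself chose these 457 genes, and with falls this deep they passed the minimum through the controls. The count of falls is therefore not a test of them, and it was not repeated in the other settings. Relative to each gene's control mean, the 457 genes had median levels of 61.8% in control 1, 77.1% in control 2 and 160% in control 3, with quartiles of 55.1% and 70.4%, 66.9% and 84.6%, and 150.5% and 170.5%. In TSA replicate 1 a median of 1.29% was left, and in TSA replicates 2 and 3 the median was 0%. The 280 more abundant genes had medians of 60.5%, 80.5% and 159% in the same libraries, and no gene is in both groups. Of the 842 falls, 78 had no count in any TSA library.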
